A study of Rattus norvegicus with 12 samples.

Results

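The diet response described here was taken over both states of a second treatment in rat liver. Livers on a high fat diet, with and without S-allylmercaptocysteine (SAMC, a sulfur amino acid compound known from aged garlic), were set against livers on a normal diet with and without SAMC. All 12 of the 12 libraries of the study entered, 6 on each side: 3 HFD (high fat diet alone) and 3 HFD+SAMC (high fat diet with SAMC given alongside), against 3 Control (normal diet alone) and 3 Control+SAMC (normal diet with SAMC given alongside). The rule used the group labels only, so no measured value chose the libraries. All animals were Sprague Dawley rats, an outbred strain. The sources used here do not state diet composition, SAMC dose, duration, age or sex. RNA was depleted of ribosomal RNA, so noncoding transcripts are in the data beside messenger RNA. The labels do not say that the libraries of a group came from separate animals, so each p-value measures the spread between these libraries, which may be technical.

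The liver both makes and stores lipid, and its genes for these tasks are set by a few transcription factors. Sterol regulatory element binding proteins (SREBPs) drive cholesterol and fatty acid synthesis and are held back when sterols are plentiful, with Insig proteins keeping them in the endoplasmic reticulum. PPAR alpha, a receptor for fatty acids, drives fatty acid oxidation in mitochondria and peroxisomes, and the receptors CAR and PXR drive cytochrome P450 enzymes that oxidise drugs and steroids.

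Of 15916 genes tested in 1 model over the 4 groups, 67 (0.421%) passed a Benjamini-Hochberg adjusted p of 0.05 in edgeR's quasi-likelihood test of the averaged diet effect, the mean of the high fat groups minus the mean of the normal diet groups. Every adjusted p below comes from that test, and every fold change is a log2 value with its standard error. 38 genes (0.239%) were higher and 29 (0.182%) were lower on the high fat diet. The genes with the largest rises by the naming rule were led by Cyp2b1 and Hdc, and those with the largest falls by Scd and Insig1. In 24 of the 38 higher genes every high fat library lay above every normal diet library, and in 19 of the 29 lower genes every high fat library lay below. Over all genes tested, 92 (0.578%) and 80 (0.503%) were separated in those ways, 172 (1.08%) in all. The median log2 fold change over all genes tested was 0.00, with 7974 genes higher and 7942 lower. Leaving out 1 library gave between 30 called genes (HFD+SAMC replicate 3 omitted) and 130 (Control replicate 1 omitted). The count was 43 or fewer without any 1 of the other libraries except Control replicate 2 (97), HFD replicate 4 (67) and Control+SAMC replicate 1 (46). All 67 genes kept their sign in each of those fits, and 21 kept their call in all 12.

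**Figure D1:**
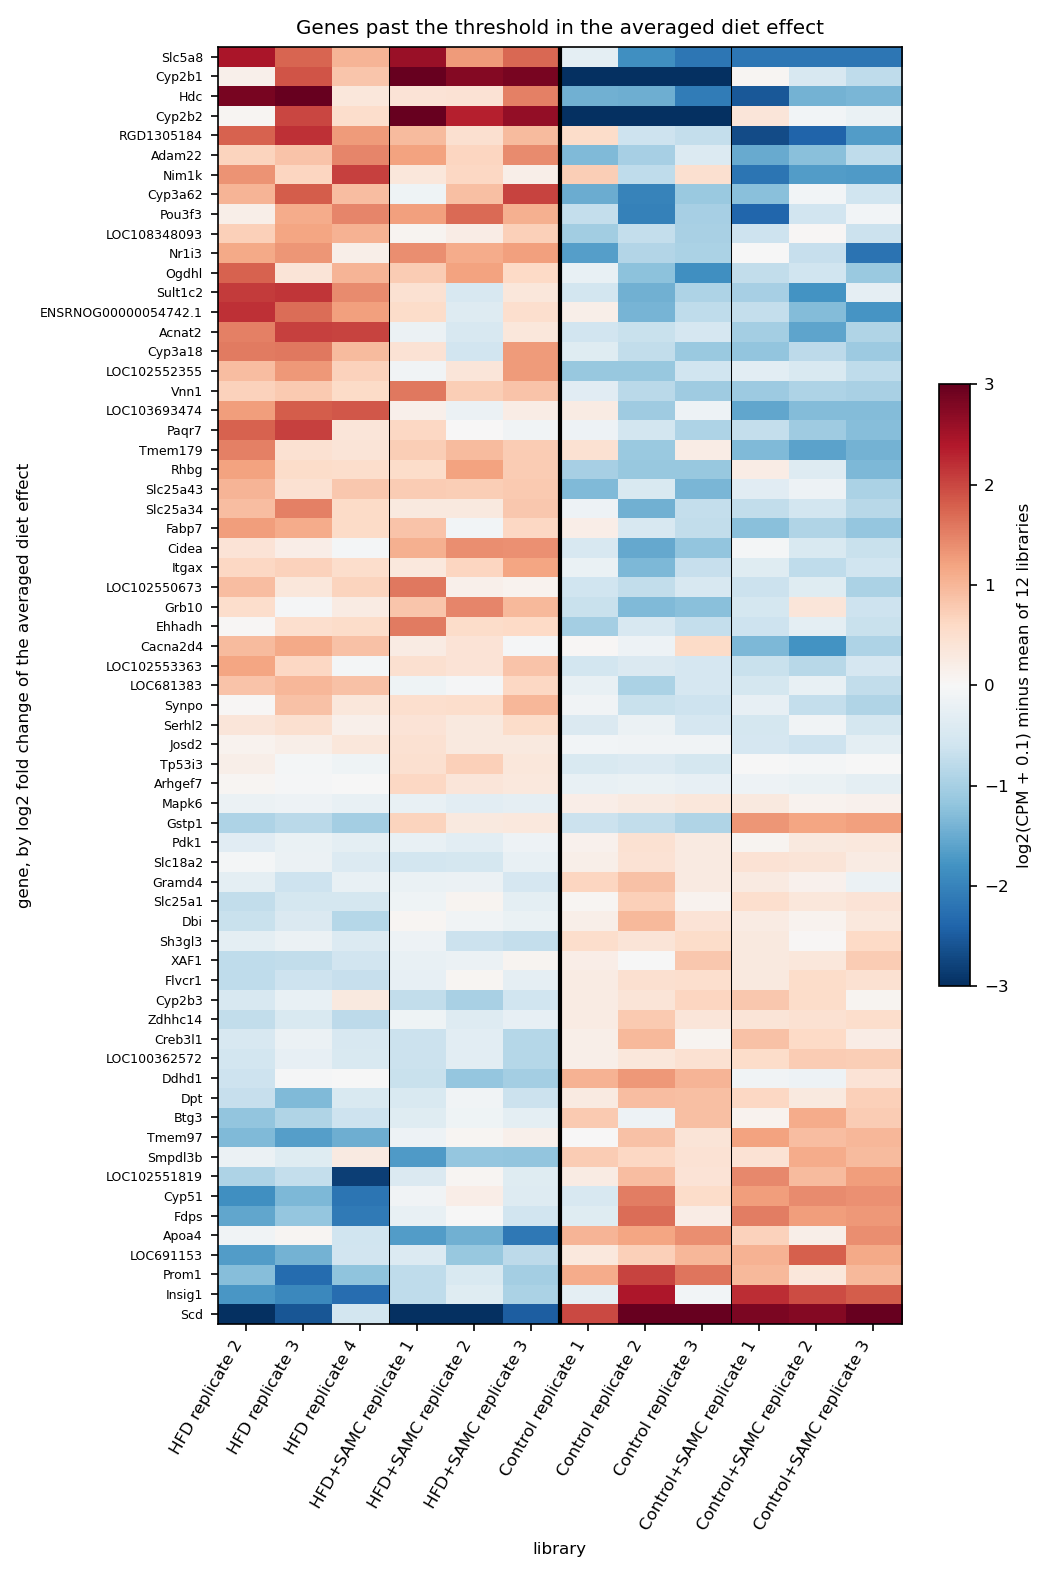
Level of 65 of the 67 genes past the adjusted p of 0.05 in the averaged diet effect (down the page, by log2 fold change) in each of the 12 libraries (across the page), as log2(CPM + 0.1) minus the gene's mean over the libraries. The thick line parts the 6 high fat libraries on the left from the 6 normal diet libraries on the right, and the 38 higher genes stand above 27 of the 29 lower ones.

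Library totals ran between 45680738 and 61937544 counts, and they were larger on the high fat diet, at 56518022 ± 4356332, than on the normal diet, at 50341794 ± 2800236 (SD, n = 6 each; exact permutation test within SAMC states, two-sided, p = 0.025, where the smallest possible p is 0.005). Without HFD replicate 3 that p was 0.055 and without Control replicate 3 it was 0.05. The difference (high fat minus normal) lay mainly under SAMC, at 11201404 counts, against 1151052 counts without SAMC. Without SAMC it was -95636 counts when HFD replicate 3 was left out. The share of counts in the 10 most abundant genes was 22.0 ± 1.53% on the high fat diet and 26.6 ± 5.13% on the normal diet (SD, n = 6 each; exact permutation p = 0.05). Leaving out 1 library put that p between 0.02 and 0.115, with 0.115 without HFD replicate 3 and 0.02 without Control replicate 1. The second principal component of log2 levels, with 14.8% of the variance, was at least 16.6 in every high fat library and at most -10.6 in every normal diet library. 4 libraries stood apart by low fibrinogen transcripts: Fga was between 2852 and 4003 CPM in HFD replicates 2 and 3, Control replicate 2 and Control+SAMC replicate 1, against 8896 CPM or more in the others. A fit without those 4 libraries keeps HFD replicate 4 as the only HFD library, and all 67 genes kept their sign in it. Calls and adjusted p-values of that fit, where given below, rest on that 1 HFD library. In a call lost there, fibrinogen state and the loss of libraries cannot be told apart. HFD+SAMC replicate 3 carried skeletal muscle transcripts, with 1101 CPM summed over 12 markers against at most 1.97 CPM in any other library. The part of these library differences in the results below was not tested.

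All 26 of the 26 listed genes for cholesterol synthesis, uptake and their control had a negative log2 fold change, with values between -2.95 and -0.77 and a median of -1.70, against 0.00 over all genes tested. 6 of the 26 fell past the adjusted p of 0.05 and 0 rose, beside 0.182% of all genes tested that fell. Among the 6 were Insig1, Tmem97, Fdps and Cyp51. The list was drawn up with earlier results of these data known, so its direction is a description. By role, the median was -1.98 over 9 mevalonate pathway enzymes, -1.65 over 11 enzymes acting after squalene and -1.44 over 6 genes of uptake or control.

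The promoters of 4 called genes are shown so that each of the 3 roles in that list has one: the mevalonate pathway (Fdps), the enzymes after squalene (Cyp51) and uptake or control (Insig1 and Tmem97). Each is the 250 bases before the start of the gene on its own strand, from RefSeq's GRCr8 assembly, with the letters CCAAT, or ATTGG where the other strand carries them, in capitals. The CCAAT box is the known site of NF-Y, a factor that works beside SREBPs at sterol gene promoters. The windows are chr4:8057770-8058019 on the minus strand for Insig1, chr2:176804817-176805066 on the minus strand for Fdps, chr4:30991443-30991692 on the plus strand for Cyp51 and chr10:63945360-63945609 on the minus strand for Tmem97.
Insig1: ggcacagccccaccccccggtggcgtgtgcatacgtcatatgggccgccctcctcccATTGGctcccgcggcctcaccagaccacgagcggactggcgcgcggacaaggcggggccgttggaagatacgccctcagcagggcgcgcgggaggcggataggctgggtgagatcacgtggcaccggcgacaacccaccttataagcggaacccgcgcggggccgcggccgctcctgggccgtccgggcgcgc
Fdps: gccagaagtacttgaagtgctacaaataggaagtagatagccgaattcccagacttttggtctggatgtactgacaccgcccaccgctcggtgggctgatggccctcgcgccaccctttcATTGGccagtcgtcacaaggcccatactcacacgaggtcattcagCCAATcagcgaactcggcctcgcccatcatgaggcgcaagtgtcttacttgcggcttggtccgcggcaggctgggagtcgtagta
Cyp51: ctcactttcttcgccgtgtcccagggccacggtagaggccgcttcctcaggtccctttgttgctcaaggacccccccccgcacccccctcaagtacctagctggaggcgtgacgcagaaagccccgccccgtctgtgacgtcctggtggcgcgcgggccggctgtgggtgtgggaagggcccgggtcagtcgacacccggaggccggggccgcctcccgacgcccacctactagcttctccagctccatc
Tmem97: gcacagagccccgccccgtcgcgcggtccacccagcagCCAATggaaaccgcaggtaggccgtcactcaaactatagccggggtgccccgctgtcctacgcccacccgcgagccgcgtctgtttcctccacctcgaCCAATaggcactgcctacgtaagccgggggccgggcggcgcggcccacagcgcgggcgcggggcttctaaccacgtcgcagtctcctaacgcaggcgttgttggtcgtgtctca
The Cyp51 window holds no CCAAT on either strand and so has no capitals. CCAAT on either strand was in 15 of the 18 listed promoters that the table holds (83.3%), against 34.3% of all 27457 promoters and 35.6% of the 11633 promoters of tested genes. TCACCCCAC, the letters of a sterol regulatory element, was in 0 of the 18 on either strand and in 0.419% of all promoters. Among the genes past the threshold, CCAAT was in 10 of 22 promoters of lower genes (45.5%) and in 10 of 32 of higher genes (31.2%). A match is a description of letters, not of a bound site.

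Tmem97, an endoplasmic reticulum protein that is induced when sterols are low, had the smallest adjusted p of the list. It had 19.8, 15.8 and 17.8 CPM in HFD livers and 45.1, 52.3 and 55.1 CPM in HFD+SAMC livers, against 50.0, 91.2 and 64.7 CPM in Control livers and 115, 94.7 and 98.8 CPM in Control+SAMC livers (CPM is counts per 1000000 counts, scaled between libraries by TMM). Within each SAMC state the groups did not overlap, while HFD+SAMC livers overlapped with Control livers. Its log2 fold change was -1.48 ± 0.14 (adjusted p = 0.000763), and it was called in all 12 fits that each left out 1 library.

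Insig1, which holds SREBPs in the endoplasmic reticulum and is itself an SREBP target, had 29.9, 26.0 and 20.5 CPM in HFD livers and 59.1, 77.7 and 52.0 CPM in HFD+SAMC livers, against 81.4, 536 and 93.9 CPM in Control livers and 463, 388 and 353 CPM in Control+SAMC livers. No high fat library reached a normal diet library, though Control replicates 1 and 3 sat close to HFD+SAMC replicate 2. The log2 fold change was -2.95 ± 0.45 (adjusted p = 0.0246). The call was lost in 9 of the 12 fits that each left out 1 library, all but those without Control replicates 1, 2 or 3, with an adjusted p of up to 0.0902.

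Fdps, which makes farnesyl diphosphate for sterols and prenylated proteins, had 96.2, 126 and 65.2 CPM in HFD livers and 243, 280 and 188 CPM in HFD+SAMC livers, against 219, 897 and 329 CPM in Control livers and 821, 671 and 700 CPM in Control+SAMC livers. Control replicate 1 lay among the HFD+SAMC livers, and the other normal diet libraries were above every high fat library. Its log2 fold change was -1.98 ± 0.32 (adjusted p = 0.0246), and as for Insig1 the call was lost in the same 9 fits, with an adjusted p of up to 0.0866. Cyp51, the demethylase of lanosterol, averaged 185 ± 113 CPM on the high fat diet and 632 ± 253 CPM on the normal diet (SD, n = 6 each), with a log2 fold change of -1.97 ± 0.29 (adjusted p = 0.0168). Its call was lost without HFD replicate 2, HFD+SAMC replicate 1 or HFD+SAMC replicate 3 (adjusted p between 0.0515 and 0.0605).

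The remaining 20 genes of the list did not pass, and each had an unadjusted p under 0.05, as did 13.6% of all genes tested (7.3% higher and 6.29% lower). Sqle, the squalene epoxidase, named for its role and outside the naming rule, had 11.9, 15.4 and 6.72 CPM in HFD livers and 43.4, 47.7 and 35.7 CPM in HFD+SAMC livers, against 24.6, 148 and 40.3 CPM in Control livers and 183, 130 and 141 CPM in Control+SAMC livers (log2 fold change -2.24 ± 0.41, adjusted p = 0.056). Control replicates 1 and 3 lay within the range of the high fat livers, and the other normal diet libraries were above all of it. Srebf2, which encodes the SREBP of sterol genes and was also named for its role, had a log2 fold change of -0.80 ± 0.17 (adjusted p = 0.0792). One library bears on the whole list: Control replicate 1 was the lowest normal diet library, with a mean log2 level of the 26 genes 0.54 below the mean of all 12 libraries. Without Control replicate 1, 20 of the 26 genes passed, and without Control replicate 2, in which the list was highest, 13 passed. Leaving out any other library left between 1 and 5 genes past the threshold, with 1 (Tmem97) when HFD replicate 2 or HFD+SAMC replicate 3 was omitted. Without the 4 low fibrinogen libraries 9 passed, and the median was -1.48. The count also moved with the model: over all 12 libraries DESeq2 called 25 of the 26 and limma voom 15. With a block for replicate number, edgeR called 1 (Tmem97). All 26 log2 fold changes were negative in every one of these fits.

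**Figure D2:**
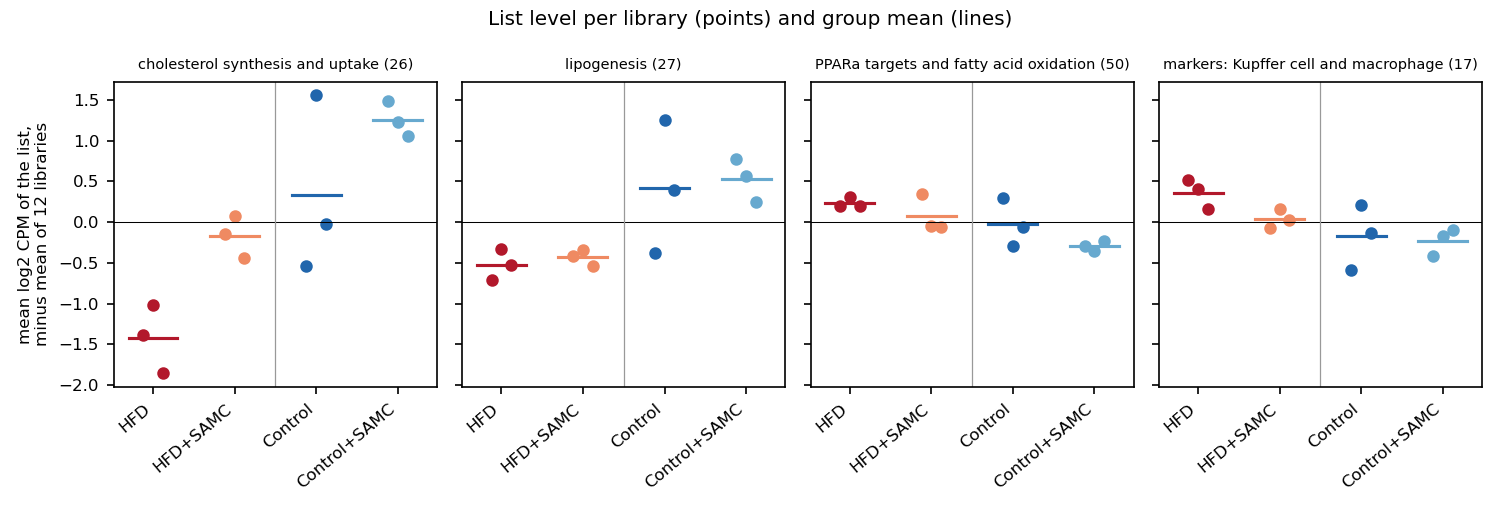
Mean log2 CPM over the genes of a list, minus the mean of the 12 libraries (vertical axis), for each library (points) in HFD, HFD+SAMC, Control and Control+SAMC, with group means as lines, for 4 lists with the number of genes tested in brackets. For cholesterol genes the HFD livers are lowest and the Control+SAMC livers high, with Control replicate 1 below the other normal diet libraries.

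Of 27 genes tested for lipogenesis, the synthesis of fatty acids, 2 fell past the threshold (Scd and Slc25a1) and 0 rose, beside 0.182% of all genes tested that fell. 25 of the 27 had a negative log2 fold change, with a median of -0.72. Without the 4 low fibrinogen libraries neither of the 2 was called, Thrsp was the 1 gene that fell, and the median was -0.49. Scd, the desaturase that makes monounsaturated fatty acids, showed the largest fall by the naming rule. It had 0.665, 2.40 and 10.1 CPM in HFD livers and 0.355, 0.737 and 2.58 CPM in HFD+SAMC livers, against 58.1, 268 and 168 CPM in Control livers and 105, 99.5 and 208 CPM in Control+SAMC livers. The diets were far apart in every library. The log2 fold change was -6.02 ± 0.82 (adjusted p = 0.0175), and the call was lost without HFD replicate 3, HFD+SAMC replicate 1 or HFD+SAMC replicate 2 (adjusted p between 0.0511 and 0.066) and without the 4 low fibrinogen libraries (adjusted p = 0.259).

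Slc25a1, the carrier that exports citrate from mitochondria for fatty acid synthesis, averaged 90.6 ± 19.5 CPM on the high fat diet and 147 ± 25.1 CPM on the normal diet (SD, n = 6 each), with a log2 fold change of -0.72 ± 0.12 (adjusted p = 0.0284). It kept its call only without Control replicate 1, 2 or 3 or HFD replicate 4, and its adjusted p in the other 8 fits was up to 0.087. Fasn, the fatty acid synthase, did not pass (log2 fold change -2.29 ± 0.43, adjusted p = 0.0567): it had 70.7, 156 and 84.0 CPM in HFD livers and 160, 258 and 135 CPM in HFD+SAMC livers, against 135, 1052 and 529 CPM in Control livers and 877, 804 and 710 CPM in Control+SAMC livers. Control replicate 1 was again within the range of the high fat livers. Thrsp, a lipogenic regulator induced by thyroid hormone and carbohydrate, had a log2 fold change of -1.0 ± 0.20 (adjusted p = 0.0571), and Pnpla3, a lipase of the same programme, had -4.32 ± 1.06 (adjusted p = 0.125). Acaca, the acetyl-CoA carboxylase, had -1.16 ± 0.25 (adjusted p = 0.0824) and Srebf1, which encodes the SREBP of lipogenesis, had -0.99 ± 0.47 (adjusted p = 0.397). The last 2 were named for their roles. Without the 4 low fibrinogen libraries Slc25a1 had an adjusted p of 0.158. Leaving out Control replicate 1 raised the list's count to 10 and leaving out Control replicate 2 to 4, with medians of -0.90 and -0.36, the ends of the range over all such fits. Without HFD replicate 3, HFD+SAMC replicate 1 or HFD+SAMC replicate 2 the count was 0, and without any other library it was between 1 and 3.

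Of 50 genes tested in the list of PPAR alpha targets and fatty acid oxidation, 2 rose past the threshold (Vnn1 and Ehhadh) and 0 fell, beside 0.239% of all genes tested that rose. 38 had positive and 12 negative log2 fold changes, with a median of 0.22. Leaving out HFD+SAMC replicate 1 gave a median of 0.13, and without the 4 low fibrinogen libraries it was 0.13 with 34 of 51 tested positive and 0 called. Vnn1, the pantetheinase that releases cysteamine in coenzyme A turnover, had 102, 108 and 93.4 CPM in HFD livers and 189, 104 and 114 CPM in HFD+SAMC livers, against 49.4, 35.8 and 30.2 CPM in Control livers and 29.4, 32.9 and 32.2 CPM in Control+SAMC livers. All high fat libraries lay above all normal diet libraries. Its log2 fold change was 1.75 ± 0.16 (adjusted p = 0.000763), kept whichever library was left out, while without the 4 low fibrinogen libraries the adjusted p was 0.0921.

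Ehhadh, the bifunctional enzyme of peroxisomal beta oxidation, had 318, 442 and 457 CPM in HFD livers and 919, 458 and 476 CPM in HFD+SAMC livers, against 154, 223 and 190 CPM in Control livers and 201, 256 and 195 CPM in Control+SAMC livers. The diets did not overlap, and the log2 fold change was 1.30 ± 0.19 (adjusted p = 0.0134; 0.122 without the 4 low fibrinogen libraries). Acot1, a cytosolic acyl-CoA thioesterase, fell just short (log2 fold change 4.49 ± 0.78, adjusted p = 0.0501). Its values were 91.5, 151 and 14.4 CPM in HFD livers and 150, 32.5 and 36.5 CPM in HFD+SAMC livers, against 13.2, 1.74 and 2.78 CPM in Control livers and 1.58, 2.03 and 2.64 CPM in Control+SAMC livers. Even its lowest high fat library, HFD replicate 4, was above its highest normal diet library, Control replicate 1. Near-identical thioesterase copies exist in rodents, so the split of its reads between copies is uncertain.

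By role, 16 of 17 genes of mitochondrial oxidation and 9 of 10 of peroxisomal oxidation had positive values, with medians of 0.18 and 0.38. Omega oxidation went the other way, with 3 of 4 genes negative and a median of -0.83. Cyp4a1, the fatty acid omega hydroxylase, named for its role, had 316, 276 and 403 CPM in HFD livers and 217, 222 and 99.2 CPM in HFD+SAMC livers, against 601, 362 and 560 CPM in Control livers and 384, 354 and 388 CPM in Control+SAMC livers (log2 fold change -0.84 ± 0.20, adjusted p = 0.107). All 4 ketogenesis genes had positive values, with 0 past the threshold. Cpt1a, which admits fatty acids to mitochondria, had a log2 fold change of 0.02 ± 0.36 (adjusted p = 0.988), and was named for its role.

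**Figure D3:**
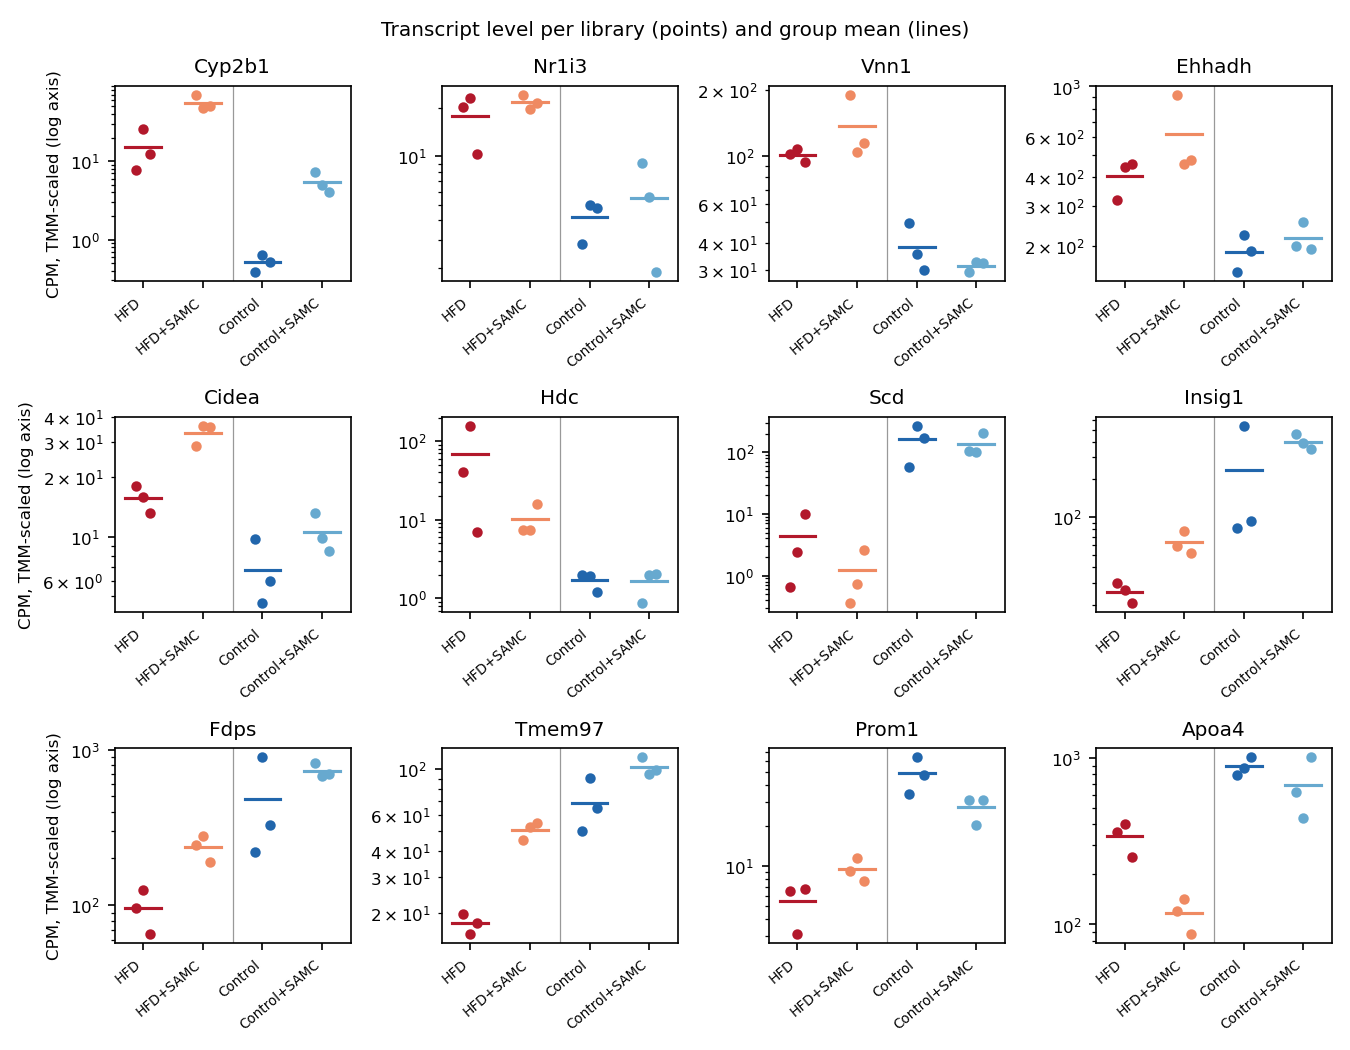
CPM on a log axis (vertical) of 12 genes in each library (points) of HFD, HFD+SAMC, Control and Control+SAMC livers, with group means as lines. Cyp2b1, Nr1i3, Vnn1, Ehhadh, Cidea and Hdc were higher on the high fat diet and Scd, Insig1, Fdps, Tmem97, Prom1 and Apoa4 lower, with each gene's diet gap present in both SAMC states.

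Of 20 genes tested for lipid droplets and lipases, 1 rose and 0 fell past the threshold, beside 0.239% of all genes tested that rose, with a median of -0.04 (-0.08 to -0.01 with 1 library left out). The one was Cidea, a droplet protein that promotes the growth of large droplets, with 18.1, 15.8 and 13.1 CPM in HFD livers and 28.7, 36.2 and 35.6 CPM in HFD+SAMC livers, against 9.72, 4.60 and 5.97 CPM in Control livers and 13.2, 9.83 and 8.48 CPM in Control+SAMC livers. Within each SAMC state the groups were apart (log2 fold change 1.44 ± 0.18, adjusted p = 0.00514), and the call held in every fit with 1 library left out and without the 4 low fibrinogen libraries (adjusted p = 0.026). Of 25 genes of fatty acid uptake and activation, 2 rose (Acnat2 and Fabp7) and 1 fell (Dbi), beside 0.239% and 0.182% of all genes tested, with a median of 0.01 (-0.06 to 0.07 with 1 library left out).

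Fabp7, the fatty acid binding protein best known from brain, had 44.4, 39.8 and 27.6 CPM in HFD livers and 33.4, 17.4 and 28.6 CPM in HFD+SAMC livers, against 21.3, 13.1 and 11.1 CPM in Control livers and 7.64, 9.83 and 8.24 CPM in Control+SAMC livers (log2 fold change 1.46 ± 0.20, adjusted p = 0.013). Only Control replicate 1 reached into the range of the high fat livers. Acnat2, a peroxisomal acyltransferase that conjugates fatty acids to amino acids, had 4.78, 7.02 and 6.85 CPM in HFD livers and 1.40, 1.13 and 2.07 CPM in HFD+SAMC livers, against 1.05, 0.979 and 1.10 CPM in Control livers and 0.739, 0.475 and 0.818 CPM in Control+SAMC livers (log2 fold change 1.88 ± 0.21, adjusted p = 0.00271). The HFD livers stood well above all others, and HFD+SAMC replicate 2 was only just above Control replicate 3. Acnat2 has a close copy, Acnat1, whose counts were too low to be tested. Dbi, the acyl-CoA binding protein, averaged 202 ± 46.7 CPM on the high fat diet and 336 ± 83.4 CPM on the normal diet (SD, n = 6 each; log2 fold change -0.75 ± 0.14, adjusted p = 0.0405), with the call lost in 10 of 12 fits, all but those without Control replicate 1 or 2 (adjusted p up to 0.12).

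Among 18 genes of apolipoproteins and lipoprotein secretion, 1 fell and 0 rose, beside 0.182% of all genes tested that fell, and the median was -0.21 (-0.12 without Control replicate 2). The one was Apoa4, an apolipoprotein of chylomicrons and HDL, with 359, 403 and 256 CPM in HFD livers and 120, 143 and 87.3 CPM in HFD+SAMC livers, against 788, 877 and 1014 CPM in Control livers and 626, 436 and 1019 CPM in Control+SAMC livers. All high fat libraries lay below all normal diet libraries, and the HFD+SAMC livers were lowest. The log2 fold change was -1.98 ± 0.21 (adjusted p = 0.00187; 0.101 without the 4 low fibrinogen libraries). Apoc3, which slows the clearance of triglyceride-rich particles, did not pass (log2 fold change -0.74 ± 0.15, adjusted p = 0.0615).

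The largest rise by the naming rule was in the Cyp2b enzymes. Of 35 genes tested in the list of drug-metabolising cytochromes P450 with their partners and receptors, 5 rose (Cyp2b1, Cyp2b2, Cyp3a62, Cyp3a18 and Nr1i3) and 1 fell (Cyp2b3), beside 0.239% and 0.182% of all genes tested. The median was 0.16, but 0.06 without Control replicate 3 or Control+SAMC replicate 3, 0.09 without Control replicate 2 or HFD replicate 4 and 0.10 without Control replicate 1 or HFD+SAMC replicate 1. Without the 4 low fibrinogen libraries Cyp2b1 and Cyp2b2 were the only genes of the list called. Cyp2b1, the classic phenobarbital-inducible P450 of rat liver, had 7.66, 25.9 and 12.3 CPM in HFD livers and 70.3, 47.1 and 50.7 CPM in HFD+SAMC livers, against 0.381, 0.636 and 0.516 CPM in Control livers and 7.20, 4.93 and 4.07 CPM in Control+SAMC livers. All high fat libraries were above all normal diet libraries, with HFD replicate 2 close to Control+SAMC replicate 1. Its log2 fold change was 4.14 ± 0.32 (adjusted p = 0.000763), with 4.91 without SAMC and 3.38 under SAMC.

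Cyp2b2, its neighbour and near copy, had 42.1, 161 and 58.3 CPM in HFD livers and 330, 203 and 252 CPM in HFD+SAMC livers, against 3.39, 2.79 and 3.75 CPM in Control livers and 51.7, 38.0 and 35.1 CPM in Control+SAMC livers (log2 fold change 3.68 ± 0.33, adjusted p = 0.00116). The order of the groups was that of Cyp2b1, with the lowest HFD liver inside the range of the Control+SAMC livers. Both calls held whichever library was left out and without the 4 low fibrinogen libraries (adjusted p = 4.06e-05 for Cyp2b1 and 6.06e-05 for Cyp2b2). The promoters of both genes follow, to show how little separates them. They are the 250 bases before each start in RefSeq's GRCr8, chr1:90645869-90646118 for Cyp2b1 and chr1:90722031-90722280 for Cyp2b2, both on the plus strand, with capitals at the bases that differ and at the unaligned end of each window.
Cyp2b1: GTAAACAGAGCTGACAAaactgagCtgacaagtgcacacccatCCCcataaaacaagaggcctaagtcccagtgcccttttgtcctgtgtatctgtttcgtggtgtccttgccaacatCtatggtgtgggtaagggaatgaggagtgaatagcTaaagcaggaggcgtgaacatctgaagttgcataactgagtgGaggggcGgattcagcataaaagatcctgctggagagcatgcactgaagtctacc
Cyp2b2: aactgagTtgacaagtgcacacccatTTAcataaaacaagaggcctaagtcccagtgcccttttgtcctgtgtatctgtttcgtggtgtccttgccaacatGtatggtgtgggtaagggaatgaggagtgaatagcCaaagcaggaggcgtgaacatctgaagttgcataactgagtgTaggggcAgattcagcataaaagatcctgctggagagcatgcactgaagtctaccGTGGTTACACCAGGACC
Over 233 aligned bases, 225 were identical (96.6%), with 8 substitutions. The transcripts were not compared here. The genes are known close paralogs, so the split of reads between Cyp2b1 and Cyp2b2 is uncertain. In the deposited table, whose build is not named, Cyp2b1 lies on chromosome 7 from 99142431 to 99183540 and Cyp2b2 on chromosome 1 from 83103925 to 83119578, whereas the RefSeq table has both on chromosome 1.

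Nr1i3, which encodes CAR, the receptor known to drive Cyp2b genes, had 20.4, 23.1 and 10.4 CPM in HFD livers and 24.3, 19.9 and 21.7 CPM in HFD+SAMC livers, against 2.84, 4.97 and 4.73 CPM in Control livers and 9.10, 5.59 and 1.88 CPM in Control+SAMC livers. The diets did not overlap (log2 fold change 2.05 ± 0.34, adjusted p = 0.0314). The call was lost in 9 of 12 fits, all but those without Control+SAMC replicate 1, Control+SAMC replicate 3 or HFD replicate 4, with an adjusted p of up to 0.096. Cyp3a18, a steroid hydroxylase, averaged 14.6 ± 6.61 CPM on the high fat diet and 3.88 ± 0.922 CPM on the normal diet (SD, n = 6 each; log2 fold change 1.86 ± 0.28, adjusted p = 0.0179). Its call was lost without Control replicate 3, Control+SAMC replicate 1, Control+SAMC replicate 3, HFD replicate 2 or HFD replicate 3 (adjusted p up to 0.0657). Cyp3a62, another member of that subfamily, averaged 5.05 ± 2.52 CPM on the high fat diet and 1.01 ± 0.543 CPM on the normal diet (SD, n = 6 each; log2 fold change 2.40 ± 0.38, adjusted p = 0.0213). Its call was lost without Control replicate 3, Control+SAMC replicate 1, Control+SAMC replicate 3 or HFD replicate 3 (adjusted p up to 0.0681). Without the 4 low fibrinogen libraries the adjusted p was 0.147 for Nr1i3, 0.306 for Cyp3a18 and 0.242 for Cyp3a62. Cyp3a genes are alike in sequence, so the split of their reads is uncertain too.

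Cyp2b3, a family member not known for phenobarbital induction, was lower: it had 198, 233 and 335 CPM in HFD livers and 165, 140 and 180 CPM in HFD+SAMC livers, against 324, 356 and 431 CPM in Control livers and 480, 403 and 288 CPM in Control+SAMC livers (log2 fold change -0.91 ± 0.16, adjusted p = 0.0347). HFD replicate 4 lay among the normal diet livers. The call was kept only without Control replicate 1, Control replicate 2, Control+SAMC replicate 3 or HFD replicate 4, and the adjusted p was up to 0.111 in the other 8 fits and 0.242 without the 4 low fibrinogen libraries. In phase II conjugation, Sult1c2, a sulfotransferase, rose and Gstp1, a glutathione S-transferase, fell among 38 genes, beside 0.239% and 0.182% of all genes tested, with a median of -0.09 (-0.14 to -0.04 with 1 library left out). Sult1c2 had 16.9, 17.6 and 10.6 CPM in HFD livers and 5.39, 2.73 and 4.95 CPM in HFD+SAMC livers, against 2.61, 1.37 and 1.97 CPM in Control livers and 1.88, 1.04 and 3.17 CPM in Control+SAMC livers (log2 fold change 2.01 ± 0.29, adjusted p = 0.0134). HFD livers were highest, and HFD+SAMC replicate 2 lay within the normal diet range. An unnamed gene next to it on chromosome 9, ENSRNOG00000054742.1, also rose (log2 fold change 1.92 ± 0.31, adjusted p = 0.0244), with the call lost in 7 of 12 fits, all but those without Control replicate 1, Control replicate 2, Control+SAMC replicate 1, HFD replicate 4 or HFD+SAMC replicate 2 (adjusted p up to 0.0837).

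Gstp1 had 11.8, 13.0 and 11.1 CPM in HFD livers and 36.2, 27.8 and 28.5 CPM in HFD+SAMC livers, against 14.4, 13.7 and 12.1 CPM in Control livers and 56.8, 52.0 and 53.7 CPM in Control+SAMC livers. Its main split was by SAMC, and HFD replicate 3 overlapped with the Control livers while the diets were apart under SAMC. The averaged log2 fold change was -0.49 ± 0.09 (adjusted p = 0.0442), made of -0.16 without SAMC and -0.81 under SAMC. The call was kept in 1 fit only, that without HFD+SAMC replicate 1, and the adjusted p was up to 0.13 in the other 11.

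**Figure D4:**
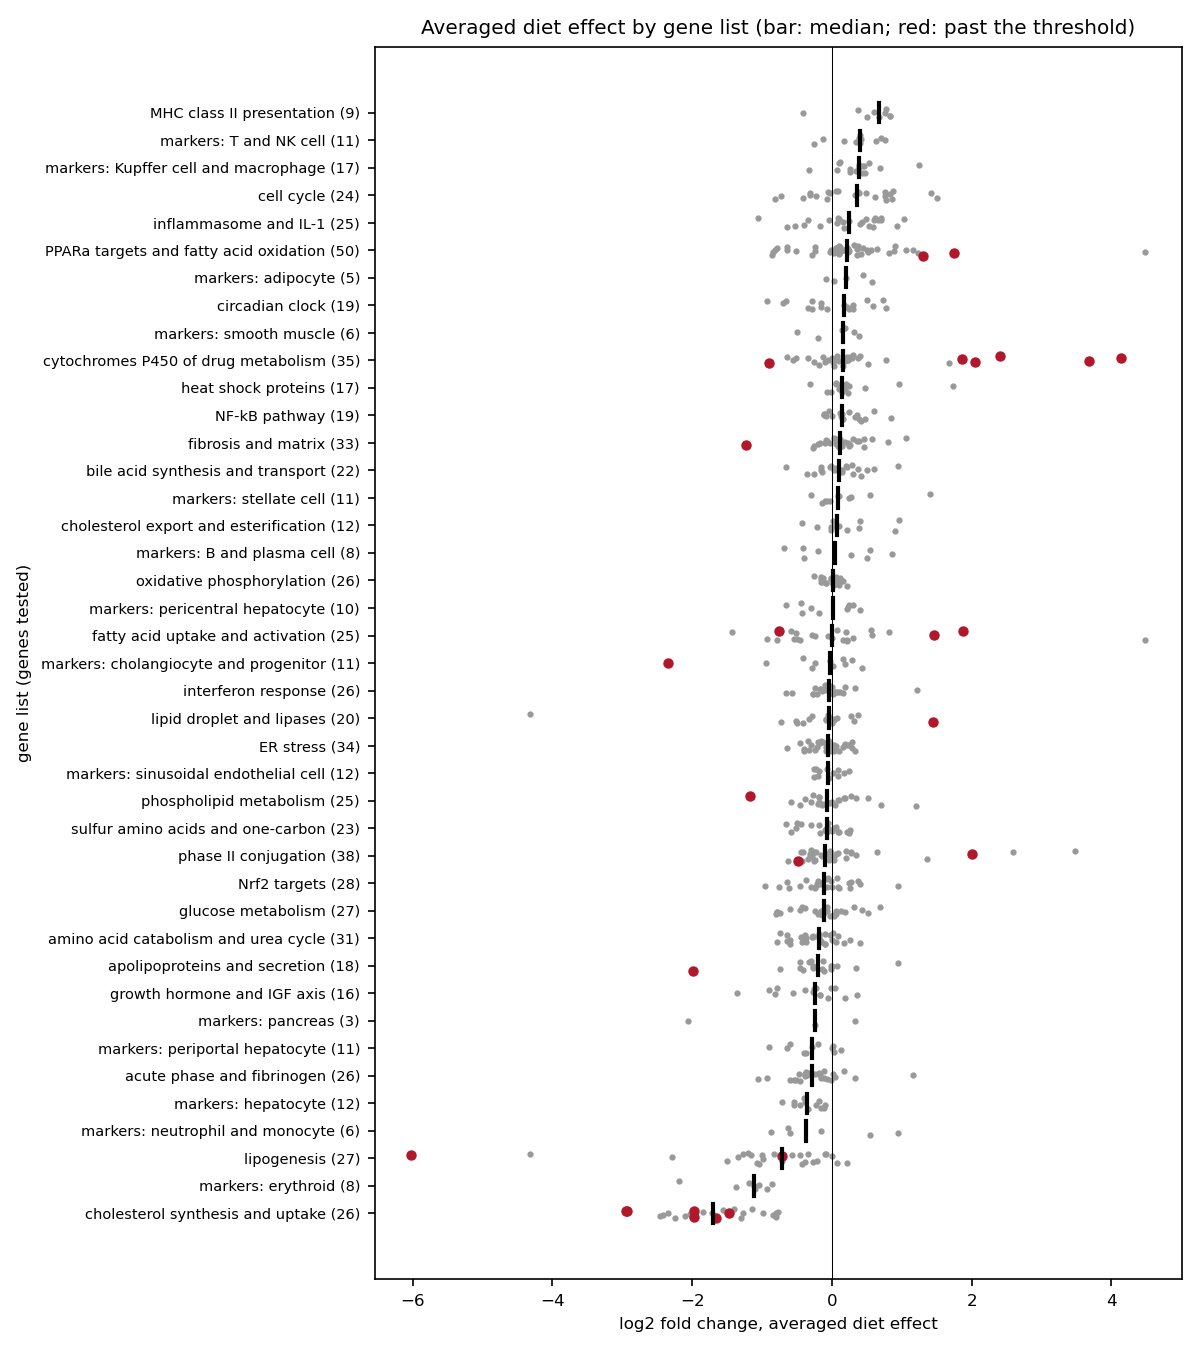
Log2 fold change of the averaged diet effect (horizontal) for each tested gene (points) of each list drawn, ordered by the list's median (black bar), with genes past the adjusted p of 0.05 in red and the number of genes tested in brackets. The lists of cholesterol synthesis, erythroid markers and lipogenesis sit lowest, the list of MHC class II presentation sits highest, and the lists of series title genes and skeletal muscle markers are not drawn.

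Outside the lists, the largest rises by the naming rule were in Hdc, Pou3f3, Paqr7, Tmem179, Rhbg and Slc25a43. Hdc, the enzyme that makes histamine, had 40.2, 157 and 7.04 CPM in HFD livers and 7.33, 7.51 and 15.8 CPM in HFD+SAMC livers, against 1.98, 1.93 and 1.21 CPM in Control livers and 0.866, 2.01 and 2.06 CPM in Control+SAMC livers. The diets did not overlap, and HFD replicate 3 was the highest library. The log2 fold change was 3.97 ± 0.68 (adjusted p = 0.0482), and the call was kept only without HFD replicate 3 or HFD replicate 4, with an adjusted p of up to 0.147 in the other 10 fits. Paqr7, a membrane progestin receptor, had 126, 154 and 47.2 CPM in HFD livers and 56.4, 36.9 and 34.5 CPM in HFD+SAMC livers, against 33.1, 25.2 and 19.3 CPM in Control livers and 22.5, 17.5 and 15.1 CPM in Control+SAMC livers (log2 fold change 1.64 ± 0.28, adjusted p = 0.0314). HFD replicates 2 and 3, both low in fibrinogen, were the highest, and the call was kept only without Control replicate 1 or HFD replicate 4 (adjusted p up to 0.0978 in the other 10 fits).

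Slc25a43, of the mitochondrial carrier family, averaged 2.99 ± 0.367 CPM on the high fat diet and 1.03 ± 0.39 CPM on the normal diet (SD, n = 6 each; log2 fold change 1.57 ± 0.23, adjusted p = 0.0134), kept its call in every fit with 1 library left out and also without the 4 low fibrinogen libraries (adjusted p = 0.0432). Rhbg, an ammonium transporter of pericentral hepatocytes, averaged 7.32 ± 1.74 CPM on the high fat diet and 2.51 ± 1.25 CPM on the normal diet (SD, n = 6 each; log2 fold change 1.59 ± 0.25, adjusted p = 0.0187). Its call was lost without Control replicate 3, Control+SAMC replicate 2, HFD replicate 2 or HFD+SAMC replicate 2 (adjusted p up to 0.0655). Pou3f3, a POU domain transcription factor, averaged 3.34 ± 1.06 CPM on the high fat diet and 0.694 ± 0.424 CPM on the normal diet (SD, n = 6 each; log2 fold change 2.27 ± 0.42, adjusted p = 0.0447), and Tmem179, a membrane protein, averaged 7.36 ± 2.33 CPM on the high fat diet and 2.74 ± 1.92 CPM on the normal diet (SD, n = 6 each; log2 fold change 1.62 ± 0.28, adjusted p = 0.0296). Each lost its call in 9 of the 12 fits: Pou3f3 kept it without Control replicate 1, Control+SAMC replicate 1 or Control+SAMC replicate 3, and Tmem179 without Control replicate 1, Control replicate 2 or HFD replicate 4.

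Falls outside the lists of metabolism were led by Prom1. Prom1, the membrane glycoprotein prominin that marks bile duct and progenitor cells, had 6.5, 3.10 and 6.75 CPM in HFD livers and 9.22, 11.5 and 7.80 CPM in HFD+SAMC livers, against 34.2, 64.9 and 47.9 CPM in Control livers and 31.0, 20.1 and 31.1 CPM in Control+SAMC livers. All high fat libraries were below all normal diet libraries (log2 fold change -2.35 ± 0.23, adjusted p = 0.00147), and the call held in every fit with 1 library left out and without the 4 low fibrinogen libraries (adjusted p = 0.0177). Summed over the list of cholangiocyte and progenitor markers without Prom1, the level was between 30.3 and 48.8 CPM on the high fat diet and between 28.9 and 40.4 CPM on the normal diet. Prom1 was the 1 gene of 11 tested that passed, beside 0.182% of all genes tested that fell.

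Dpt, the matrix protein dermatopontin, had 101, 65.1 and 120 CPM in HFD livers and 120, 151 and 104 CPM in HFD+SAMC livers, against 199, 312 and 306 CPM in Control livers and 251, 201 and 269 CPM in Control+SAMC livers (log2 fold change -1.23 ± 0.17, adjusted p = 0.013). The diets did not overlap. It was the 1 of 33 fibrosis and matrix genes that passed, beside 0.182% of all genes tested that fell, while 24 of the 33 had positive values. The median was 0.12, but 0.06 without HFD+SAMC replicate 3 or Control+SAMC replicate 3 and 0.08 without HFD+SAMC replicate 2. Ddhd1, a phospholipase that acts on phosphatidic acid, was the 1 of 25 phospholipid genes that passed, beside 0.182% of all genes tested that fell. It had 11.6, 17.4 and 17.6 CPM in HFD livers and 11.1, 7.87 and 8.65 CPM in HFD+SAMC livers, against 36.4, 43.7 and 36.1 CPM in Control livers and 16.5, 16.0 and 23.5 CPM in Control+SAMC livers (log2 fold change -1.17 ± 0.15, adjusted p = 0.00514). In each SAMC state the diets were apart, at different levels in the 2 states. Both genes kept their calls in every fit with 1 library left out, and neither passed without the 4 low fibrinogen libraries (adjusted p = 0.135 for Dpt and 0.0635 for Ddhd1).

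Zdhhc14, a palmitoyltransferase, averaged 8.02 ± 1.44 CPM on the high fat diet and 15.2 ± 2.08 CPM on the normal diet (SD, n = 6 each; log2 fold change -0.93 ± 0.12, adjusted p = 0.00514) and kept its call in every such fit, including that without the low fibrinogen libraries (adjusted p = 0.0329). Creb3l1, a transcription factor anchored in the endoplasmic reticulum, averaged 11.8 ± 1.93 CPM on the high fat diet and 23.7 ± 6.46 CPM on the normal diet (SD, n = 6 each; log2 fold change -1.02 ± 0.18, adjusted p = 0.0303), and Btg3, an antiproliferative factor, averaged 2.12 ± 0.586 CPM on the high fat diet and 4.96 ± 1.56 CPM on the normal diet (SD, n = 6 each; log2 fold change -1.26 ± 0.23, adjusted p = 0.0363). Each lost its call in 8 of the 12 fits: Creb3l1 kept it without any of the 3 Control replicates or without Control+SAMC replicate 3, and Btg3 without Control replicate 1, Control replicate 2, Control+SAMC replicate 1 or HFD replicate 4. 2 weakly expressed genes below the naming rule's minimum level were singled out after their values were seen. Itgax, the integrin chain CD11c of dendritic cells and macrophages, averaged 2.42 ± 0.538 CPM on the high fat diet and 0.921 ± 0.257 CPM on the normal diet (SD, n = 6 each; log2 fold change 1.39 ± 0.24, adjusted p = 0.0303), without overlap, and lost its call in 8 fits, keeping it without Control replicate 1, Control replicate 2, HFD replicate 4 or HFD+SAMC replicate 1. Slc5a8, a monocarboxylate transporter, had 2.34, 1.40 and 0.805 CPM in HFD livers and 2.58, 0.988 and 1.38 CPM in HFD+SAMC livers, against 0.267, 0.0245 and 0 CPM in Control livers and 0 CPM in all 3 Control+SAMC livers (adjusted p = 0.0187; 0.057 with HFD replicate 3 left out and 0.0505 with HFD+SAMC replicate 3 left out). No fold is given for it, because 4 normal diet libraries had no count.

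No gene of the inflammatory lists was called by edgeR's test over all 12 libraries. DESeq2 called Naip6, Nlrp12 and Panx1 of the inflammasome list and Ciita, RT1-Da and RT1-Db1 of the MHC class II list, all higher. It also called Tnfaip3 of the NF-kB list and Gbp2 of the interferon list, both higher, and 5 acute phase genes, all lower. By limma voom, Naip6 and Nlrp12 were called higher and Crp, an acute phase gene, lower. Of 8 genes of the study's title that were tested, 5 had positive values and 0 passed. Nlrp3, the inflammasome sensor, had 7.11, 8.26 and 3.67 CPM in HFD livers and 3.77, 4.11 and 4.92 CPM in HFD+SAMC livers, against 3.91, 3.28 and 3.23 CPM in Control livers and 3.80, 3.54 and 2.86 CPM in Control+SAMC livers (log2 fold change 0.60 ± 0.19, adjusted p = 0.202). HFD replicates 2 and 3 were highest, and the other libraries were interleaved. Nlrp6 had a count of 0 in every library, which allows up to 3 counts in a library, or 0.0657 CPM in the shallowest, counting error only. Rela (log2 fold change -0.11 ± 0.10), Nfkb1 (0.14 ± 0.08), Nfkbia (0.14 ± 0.17), Nfe2l2 (0.09 ± 0.11), Ahr (-0.35 ± 0.33), Cyp1a2 (-0.19 ± 0.16) and Cyp1a1 (0.16 ± 0.90) had adjusted p-values between 0.491 and 0.967.

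In the list of inflammasome and interleukin-1 genes, 18 of 25 were positive, the median was 0.24 and 0 passed, with Naip6, a sensor of bacterial proteins, closest (log2 fold change 0.93 ± 0.18, adjusted p = 0.0511). The list's median was 0.55 without SAMC and 0.09 under SAMC, and for the averaged effect 0.16 without HFD replicate 2 and 0.37 without Control replicate 2. In the list of MHC class II presentation 8 of 9 were positive, the median was 0.68 (1.07 without SAMC and 0.28 under SAMC) and 0 passed. RT1-Da, a rat class II chain, had 136, 111 and 105 CPM in HFD livers and 36.2, 70.6 and 48.8 CPM in HFD+SAMC livers, against 34.3, 60.4 and 70.1 CPM in Control livers and 29.1, 46.0 and 29.8 CPM in Control+SAMC livers (log2 fold change 0.83 ± 0.21, adjusted p = 0.124). The HFD livers were above all others, and the HFD+SAMC livers overlapped with the normal diet livers. The NF-kB list had a median of 0.14 (0.09 to 0.20 with 1 library left out) and the Nrf2 target list -0.11 (-0.17 to 0.01), each with 0 of its genes past the threshold. Of the acute phase and fibrinogen genes 21 of 26 were negative, with a median of -0.29 (-0.16 without Control replicate 1 and -0.17 without Control+SAMC replicate 3 or HFD replicate 3). Of the interferon response genes 15 of 26 were negative, with a median of -0.04 (-0.16 to 0.05 with 1 library left out).

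No gene on the list of Kupffer cell and macrophage markers, which did not hold Itgax, passed edgeR's test over all 12 libraries. 16 of 17 Kupffer cell and macrophage markers had positive log2 fold changes with a median of 0.38, 0 passed, and none was at 0 in all libraries. 10 of the 17 were higher with an unadjusted p under 0.05 by that test, beside 7.3% of all genes tested. Lyz2 passed when HFD+SAMC replicate 3 was left out. DESeq2 called C1qa, Lyz2 and Tyrobp, and limma voom called none. Their summed level was between 1045 and 1608 CPM on the high fat diet and between 662 and 998 CPM on the normal diet, without overlap. Without Control replicate 1 the median was 0.24, with 14 of 17 positive. T and NK cell markers had 9 of 11 positive with a median of 0.40 and 0 passing, and summed to between 51.4 and 79.8 CPM on the high fat diet and between 34.2 and 48.6 CPM on the normal diet. Their median was 0.24 without Control replicate 1, 0.25 without HFD replicate 2 and 0.17 (7 of 12 positive) without the 4 low fibrinogen libraries. All 12 of 12 hepatocyte markers were negative with a median of -0.36 and 0 passing, and summed to between 146203 and 175264 CPM on the high fat diet and between 140194 and 293347 CPM on the normal diet. All 8 erythroid markers tested were negative with a median of -1.11, 0 passing, and summed to between 152 and 283 CPM on the high fat diet and between 186 and 777 CPM on the normal diet, with a median of -0.69 without Control+SAMC replicate 1. In bulk liver, fewer cells of a type and less RNA per cell cannot be told apart. The part of these differences in Itgax or in the inflammatory lists was not tested. Stellate cell and sinusoidal endothelial markers had medians of 0.09 (-0.09 to 0.10 with 1 library left out) and -0.06 (-0.15 to -0.01), with 0 called in each.

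The other lists held no gene called by edgeR's test over all 12 libraries. The median was -0.19 for amino acid catabolism and the urea cycle (24 of 31 genes negative; -0.28 to -0.14 with 1 library left out) and -0.24 for the growth hormone and IGF axis (13 of 16 negative; -0.31 to -0.20). It was 0.36 for the cell cycle, but 0.02 without HFD replicate 3, 0.20 without Control replicate 1 and 0.18 when HFD+SAMC replicate 1 was left out. For heat shock proteins it was 0.14 (0.24 without Control replicate 1, 0.08 without Control replicate 2 and 0.09 without HFD replicate 4), and for the circadian clock 0.18 (-0.06 without HFD replicate 3 and 0.09 without Control replicate 3). Smaller medians, each with its range over the 12 fits that left out 1 library, were 0.11 for bile acids (0.00 to 0.23), 0.07 for cholesterol export (0.04 to 0.12), 0.02 for oxidative phosphorylation (0.00 to 0.05), -0.05 for endoplasmic reticulum stress (-0.12 to 0.02), -0.08 for sulfur amino acids (-0.11 to -0.02) and -0.12 for glucose metabolism (-0.20 to -0.07). In the growth hormone list, Onecut1, a hepatocyte transcription factor, had a log2 fold change of -0.79 ± 0.17 (adjusted p = 0.0677), and Prlr, the prolactin receptor, had -0.90 ± 0.20 (adjusted p = 0.0792). Hspb1, a small heat shock protein, had 39.7, 78.0 and 96.5 CPM in HFD livers and 84.7, 154 and 104 CPM in HFD+SAMC livers, against 30.6, 15.2 and 7.90 CPM in Control livers and 63.7, 34.4 and 25.8 CPM in Control+SAMC livers (log2 fold change 1.73 ± 0.37, adjusted p = 0.0868). The diets were apart within each SAMC state and overlapped across them.

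How far the response was shared was read from the simple effects, HFD against Control and HFD+SAMC against Control+SAMC, which use different libraries. All 67 genes had the same sign in both, as the average tends to select, and 61 had an unadjusted p under 0.05 in each. Over all 15916 genes tested, 260 had such a p in each with the same sign and 121 with opposite signs. The 67 were called on the mean of these same effects, so the 61 is a description and not separate support. Only Cyp2b1 and Vnn1 passed the adjusted threshold in both simple effects as well as in the average, and 48 of the 67 passed in neither. HFD against Control called 23 genes (0.145% of those tested), 12 higher (0.0754%) and 11 lower (0.0691%). HFD+SAMC against Control+SAMC called 10 (0.0628%), 4 higher (0.0251%) and 6 lower (0.0377%). 4 genes were in both lists (17.4% of the first, 40% of the second): Cyp2b1, Vnn1, Eif4g2-ps1 and LOC100911991, the last 2 with opposite signs. Of the 23, 15 had the same sign under SAMC and 12 also an unadjusted p under 0.05 there. Of the 10, 7 had the same sign without SAMC, all 7 with an unadjusted p under 0.05. Over all genes tested 56.6% had the same sign in both, and Pearson's r of the simple effects was 0.14 across genes, which are not independent replicates. Any difference between the library kinds described below enters the simple effects with opposite signs. Its part in these values was not tested.

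**Figure D5:**
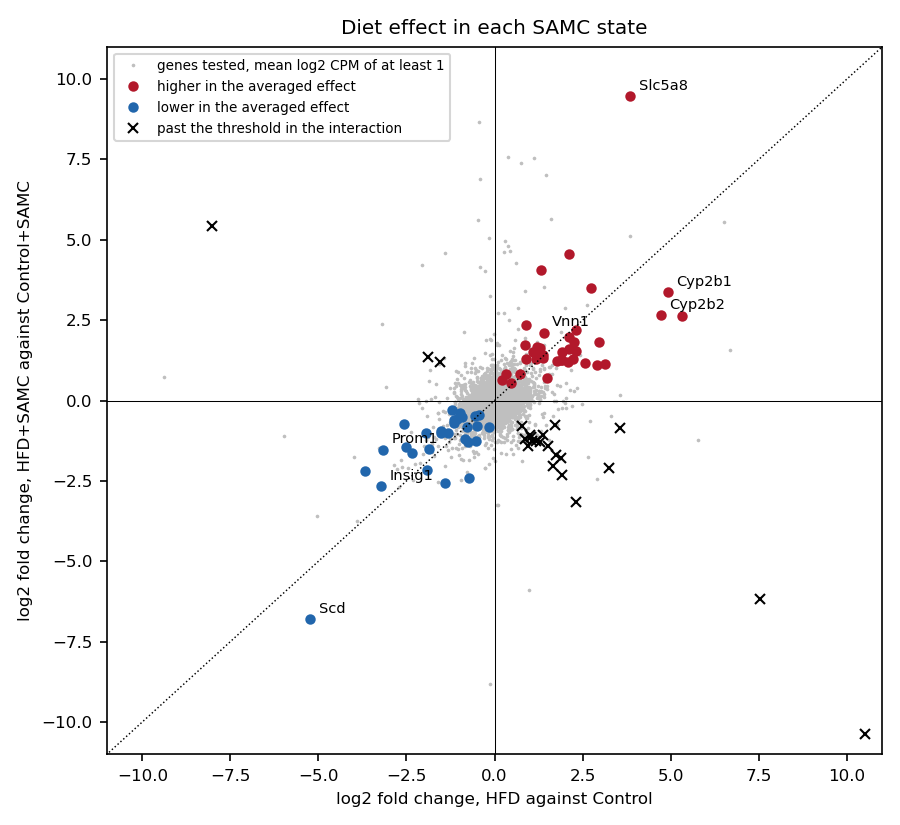
Log2 fold change of HFD against Control (horizontal) and of HFD+SAMC against Control+SAMC (vertical) for tested genes whose mean log2 CPM reached 1 (grey), the 38 higher (red) and 29 lower (blue) genes of the averaged effect, and the 23 genes past the threshold in the interaction (crosses). The coloured points lie in the upper right and lower left on both sides of the dotted line of equal effects, and the crosses lie in the upper left and lower right.

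38 of the 67 were larger without SAMC. 0 of the 67 passed in the interaction by edgeR's quasi-likelihood test (lowest adjusted p 0.286), while 21 had an unadjusted interaction p under 0.05, as did 7.41% of all genes tested. Over all genes tested, the interaction called 128 genes by DESeq2 and 51 by limma voom. Prom1 had log2 fold changes of -3.17 without SAMC and -1.53 under SAMC. Its unadjusted interaction p by edgeR was 0.00328. Smpdl3b, a sphingomyelinase-like enzyme, went the other way with -0.73 without SAMC and -2.42 under SAMC. Its unadjusted interaction p of 0.00196 in edgeR's quasi-likelihood test was the smallest of the 67. For Nr1i3 the simple effects were 2.11 and 1.99, and for Mapk6, an atypical MAP kinase, -0.45 and -0.46. Mapk6 and, below, Fam111a were picked after their values were seen.

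The interaction called 23 other genes (0.145%), 3 positive (0.0188%) and 20 negative (0.126%), and all 23 had opposite signs in the simple effects. Fam111a, a protease gene, averaged 121 ± 50.0 CPM in HFD livers and 0.0622 ± 0.016 CPM in HFD+SAMC livers, against 0.0818 ± 0.0624 CPM in Control livers and 86.1 ± 114 CPM in Control+SAMC livers (SD, n = 3 each; interaction adjusted p = 0.0392). It was thus high in HFD and Control+SAMC livers and near nothing in the others. The same groups differ in the deposited RPKM columns: for the gene RGD1562465 those columns imply a length of 4432 bases in HFD and Control+SAMC libraries and of 3377 bases in HFD+SAMC and Control libraries. The interaction and that difference in the authors' files cannot be told apart. Each side of the averaged diet effect holds 1 group of each kind, so the averaged effect is balanced over it, whereas each simple effect is not.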

How the data were processed

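12 rat liver libraries of ribosome-depleted total RNA were sequenced in paired 150-base reads, per the labels' protocols. The submitters' processing notes name Trimmomatic 0.36, FastQC, HISAT2 and HTSeq; neither genome build nor strand setting is stated in those sources. The deposited table holds raw read counts per gene and RPKM values that the authors computed. Counts were used for every test, and the deposited RPKM only to check gene lengths. Genes kept by filterByExpr (15916 of 40154, holding 99.958% of counts) were scaled by TMM and fitted as 4 group means with edgeR 4.0.16 (robust quasi-likelihood, R 4.3.3, Benjamini-Hochberg adjustment). The residual degrees of freedom were 8. On simulated counts for this comparison (15629 genes, 200 changed), 86% of log2 changes of 1 and 97% of log2 changes of 2 were recovered, and 7.11% of calls were false. The changed genes were drawn among those with a mean log2 CPM above 1. Each gene was drawn independently from 1 mean profile, without the low fibrinogen state or the skeletal muscle transcripts of the real libraries. These shares therefore need not hold for the real data. The comparison, the genes and the gene lists were chosen with earlier results of these data known. Named genes were the 15 largest changes each way among called genes with a mean log2 CPM of 1 or more, a full gene symbol and the same sign in both simple effects; every called gene and up to 4 genes of smallest p in each pathway list; the title's genes; up to 5 called genes of smallest interaction p; and some genes named for their roles. A few named genes are not reported here. Alternatives were DESeq2 1.42.0, limma 3.58.1 voom, DESeq2 size factors, other filters, an additive model, a replicate block, leaving out each library and, chosen after seeing the data, leaving out the 4 low fibrinogen libraries. The last keeps HFD replicate 4 as the only HFD library, so its calls are not a test of fibrinogen state.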

Additional observations from a re-analysis of the deposited data

Results flagged for a closer look

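4 of 82 groups of 6 libraries held a library far from the others by Dixon's test, which chance alone gives in about 1 of 20 groups. Mitochondrial transcripts were 1.73% of counts in HFD replicate 3, the lowest high fat library. Nr1i3 was 10.4 CPM in HFD replicate 4, the lowest high fat library. Vnn1 was 189 CPM in HFD+SAMC replicate 1, the highest high fat library. Dbi was 499 CPM in Control replicate 2, the highest normal diet library. The diet effect differed between SAMC states for 23 genes by the interaction term of edgeR's quasi-likelihood test, none of them among the 67, and this difference cannot be told apart from the library kinds seen in the deposited RPKM columns.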

How the results depend on the processing

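The averaged diet effect called 67 genes by edgeR, 538 by DESeq2, 194 by limma voom and 31 without the low fibrinogen libraries. HFD against Control called 23 genes, and 315, 144 and 3 in those settings. HFD+SAMC against Control+SAMC called 10 genes, and 272, 33 and 25, with 21 without a filter on low counts. The interaction called 23 genes, and 128, 51 and 2, with 13 at a mean log2 CPM of at least 1. All 67 genes kept their sign in every setting that tested them. With the replicate block 53, 24, 2 and 9 genes were called in the 4 comparisons, and 35 of the 67 remained. Among those lost were Ehhadh (adjusted p = 0.0623), Insig1, Fdps, Cyp51, Slc25a1, Nr1i3, Cyp3a18, Dbi and Gstp1. Correlations of same-numbered libraries had both signs (-0.0366 and 0.248 for 2 such pairs). They cannot decide whether the numbers pair the libraries. Each compares deviations from a group mean of 3 libraries, and the pair at 0.248, HFD replicate 2 and Control replicate 2, was low in fibrinogen on both sides. Leaving out 1 library gave 30 to 130 genes for the averaged effect, 4 to 53 for HFD against Control, 1 to 45 for HFD+SAMC against Control+SAMC and 7 to 19 for the interaction. It put the difference in total counts (high fat minus normal) between 5.35e+06 and 6.81e+06, in the albumin share between -5.62 and -2.20 percentage points and in the share of the top 10 genes between -6.16 and -3.14 percentage points. The mitochondrial share differed by -0.536 to 0.0664 percentage points. The causes of these changes were not tested. Depth limits genes near 0 CPM, which rest on few counts.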

Other observations

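Some values were picked after they were seen and are given as raw counts. Cyp2c12, a P450 known as female-specific in rat liver, had between 118634 and 269142 counts in the 12 libraries, while Cyp2c11 and Cyp3a2, known as male-specific, had at most 25 and 4 counts. Sult2a2, a hydroxysteroid sulfotransferase, was split within HFD and within Control livers, while the diets were apart under SAMC. It had 75, 85 and 7414 counts in HFD livers and 8555, 4435 and 8175 counts in HFD+SAMC livers, against 5435, 169 and 53 counts in Control livers and 162, 311 and 81 counts in Control+SAMC livers. Its averaged diet log2 fold change was 2.59, the highest of 10 sulfotransferases tested, and it did not pass.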
